A study of Mus musculus with 2 samples.

Results

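The Mir200 family and 3 other microRNA (miRNA) genes of epithelial tissues were read out in embryonic mouse forebrain. The 8 genes, Mir200a, Mir200b, Mir200c, Mir141, Mir429, Mir203, Mir205 and Mir375, were taken from the 1973 miRNA genes of the deposited count tables by their gene identifier, and all 8 were found. The samples were 2 libraries of small RNA, for which the labels name a size range below 30, from forebrain of healthy B6NCrl embryos at embryonic day 16.5, with males and females pooled. Both belong to a single group: replicate 2, a pool for which the labels give 41 embryos, and replicate 1, a separate pool whose number of embryos is not analysed here. No second tissue, stage or treatment is named, so levels were described per library, and the only test across genes compared one library with the other. Each library averages over pooled embryos and all cell types of the dissected tissue, and fewer cells of a type and less miRNA per cell cannot be told apart.

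A miRNA gene is transcribed into a hairpin that is cut into a mature strand of about the length of a small RNA read, and bases 2 to 8 of that strand, the seed, pair with target mRNAs. The Mir200 family keeps epithelial cells epithelial chiefly by repressing Zeb1 and Zeb2, transcription factors that switch off epithelial cadherin, and Zeb1 and Zeb2 in turn repress the family's genes. In the nervous system the family is best known from the olfactory neuroepithelium, where it acts in the differentiation of sensory neurons. Mir203 promotes the exit of skin progenitors from the cell cycle through p63, Mir205 marks stratified and glandular epithelia and shares Zeb targets with the Mir200 family, and Mir375 is a miRNA of endocrine cells in the pancreatic islet and the pituitary.

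The family splits into 2 seed groups, which the mature strands below show with the seed in capitals, as given by RefSeq for GRCm38.p6.
miR-200b-3p: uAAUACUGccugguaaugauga
miR-200c-3p: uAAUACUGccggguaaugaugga
miR-429-3p: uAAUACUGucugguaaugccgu
miR-200a-3p: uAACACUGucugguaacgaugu
miR-141-3p: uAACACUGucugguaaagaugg
The seeds of the 2 groups differ by one base, U4C counted from the 5′ end of the mature strand of miR-200b-3p against miR-200a-3p. Among the 1738 mature strands of the RefSeq table, AAUACUG was the seed of these 3 strands only and AACACUG of these 2 only. Within the first group, miR-200b-3p and miR-200c-3p differ at 2 of 22 bases (U11G and A22G), and within the second miR-200a-3p and miR-141-3p also differ at 2 of 22 (C17A and U22G). Mir203 and Mir205 have seeds of their own, each carried by 1 mature strand of that table, and are shown as the other members with a leading strand in the table.
miR-203-3p: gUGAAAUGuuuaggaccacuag
miR-205-5p: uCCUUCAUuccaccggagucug

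The counts are per hairpin and do not separate its arms. The hairpin of Mir429, the member with the highest mean CPM, is shown with both annotated mature strands in capitals, miR-429-5p first and miR-429-3p after the loop.
Mir429 hairpin: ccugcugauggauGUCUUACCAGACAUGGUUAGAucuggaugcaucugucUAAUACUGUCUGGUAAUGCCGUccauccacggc
The RefSeq hairpins of all 8 genes were identical to the GENCODE M21 transcripts. Of the 1973 genes, 1894 have a sequence in GENCODE M21, and none of the 8 shared a stretch of 22 bases with another of these, on either strand. That matters here because reads that map to several loci are totalled apart from the genes. Places outside these 1894 genes were not searched. Shorter shared stretches and near matches were not searched either, so loss of reads that fit several members of the family is not excluded.

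The Mir200 family lies in 2 clusters. On the minus strand of chromosome 4 (GRCm38, the assembly that mm10 names), Mir200b is at chr4:156055681-156055750, Mir200a at chr4:156054896-156054985 and Mir429 at chr4:156053905-156053987, so the cluster spans 1846 bases with gaps of 695 and 908 bases between hairpins. By GENCODE M21 all 3 lie in introns of the protein-coding gene Ttll10 on the same strand. They also lie within the non-coding gene Gm13648, where Mir429 falls within an annotated exon and the other two are intronic. On the minus strand of chromosome 6, Mir200c is at chr6:124718322-124718390 and Mir141 at chr6:124717914-124717985, with 336 bases between them. Both are intronic to the non-coding gene Gm15884, and Mir141 also overlaps part of an exon of the unclassified transcript Gm29008. Mir203 is intergenic at chr12:112130880-112130955 on the plus strand, 3321 bases from Aspg. Mir205 lies within an exon of the long non-coding RNA 4631405K08Rik at chr1:193507463-193507530 on the minus strand. Mir375 is intergenic at chr1:74900658-74900721 on the minus strand, 1350.0 bases from Cfap65.

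The libraries held 4158686 gene-strand counts in replicate 2 and 5060112 in replicate 1. A count of 0 would allow up to 0.721 and 0.593 CPM (counts per 1000000 gene-strand counts), taking a limit of 3 counts. For the forebrain label, 14 neural miRNA genes were read, of which the 13 with a row all had counts. They were led by Mir137 at 11457 CPM in replicate 2 and 13239 CPM in replicate 1, and summed to 23740 and 24997 CPM. Mir124a-3 of the list had only 0.962 CPM in replicate 2 and 1.19 CPM in replicate 1, near the limits above. Having counts is therefore no test of the label by itself. Of these 13, 11 share 22 bases with another miRNA gene, so their sum omits reads that map to several loci. The row of Mir124a-3, one of several Mir124a genes, omits such reads too. Its low value therefore does not give the level of the mature strand.

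All 8 epithelial genes were detected in both libraries, each with more than 100 counts. Together they held 0.407% of the gene-strand counts in replicate 2 (exact Clopper-Pearson 95% interval 0.401% to 0.413%) and 0.342% in replicate 1 (0.337% to 0.347%). These and later intervals describe counting error alone, as reads without molecular identifiers are not independent molecules, and the gap between the libraries was larger than that error. For scale, the most abundant gene of the tables, Mir99a, held 267830 CPM in replicate 2 and 231439 CPM in replicate 1.

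Mir429 and Mir203 were the leading members by reads and stood more than 3-fold above the next member in both libraries. Mir429 had 6794 counts, or 1634 CPM, in replicate 2 and 5918 counts, or 1170 CPM, in replicate 1. Mir203 had 5541 counts (1332 CPM) in replicate 2 and 6797 counts (1343 CPM) in replicate 1. Their order was Mir429 above Mir203 in replicate 2 and the other way round in replicate 1, so by level they did not differ beyond the spread between the pools. By mean CPM, Mir429 ranked 81st and Mir203 83rd of all 1973 genes. The genes next to Mir429 in level were Mir204, at 1453 ± 306 CPM (SD, n = 2), and Mir15b, at 1373 ± 266 CPM. Those next to Mir203 were Mir15b and Mirlet7c-2, at 1249 ± 294 CPM.

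The middle of the group was made of Mir200b, Mir200c and Mir375. Mir200b had 1695 counts (408 CPM) in replicate 2 and 1419 counts (280 CPM) in replicate 1. Mir200c had 1334 counts (321 CPM) in replicate 2 and 1195 counts (236 CPM) in replicate 1. The ranges of these neighbours overlapped, although Mir200b was above Mir200c within each library. Mir375 followed with 752 counts (181 CPM) in replicate 2 and 1025 counts (203 CPM) in replicate 1, below both of them in each library. Their ranks by mean CPM were 130, 143 and 165. The genes adjacent in level were Mir341 and Mir3071 for Mir200b, Mir760 and Mir210 for Mir200c, and Mir455 and Mir363 for Mir375.

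The lowest levels were those of Mir200a, Mir205 and Mir141. Mir200a had 380 counts (91.4 CPM) in replicate 2 and 360 counts (71.1 CPM) in replicate 1. Mir205 had 203 counts (48.8 CPM) in replicate 2 and 366 counts (72.3 CPM) in replicate 1. Mir141 had 227 counts (54.6 CPM) in replicate 2 and 237 counts (46.8 CPM) in replicate 1. Mir200a was above Mir141 in both libraries, with ranges that did not overlap, while the range of Mir205 overlapped that of each. Mir205 had the lowest value of the 3 in replicate 2, but its exact interval of 42.3 to 56.0 CPM overlapped that of Mir141, 47.7 to 62.2 CPM. In replicate 1 Mir205 was level with Mir200a within counting error, with exact intervals of 65.1 to 80.1 CPM for Mir205 and 64.0 to 78.9 CPM for Mir200a. They ranked 204 (Mir200a), 228 (Mir205) and 238 (Mir141). Next to them in level stood Mir122 and Mir135a-2 for Mir200a, Mir30c-1 and Mir194-2 for Mir205, and Mir666 and Mir150 for Mir141.

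**Figure D1:**
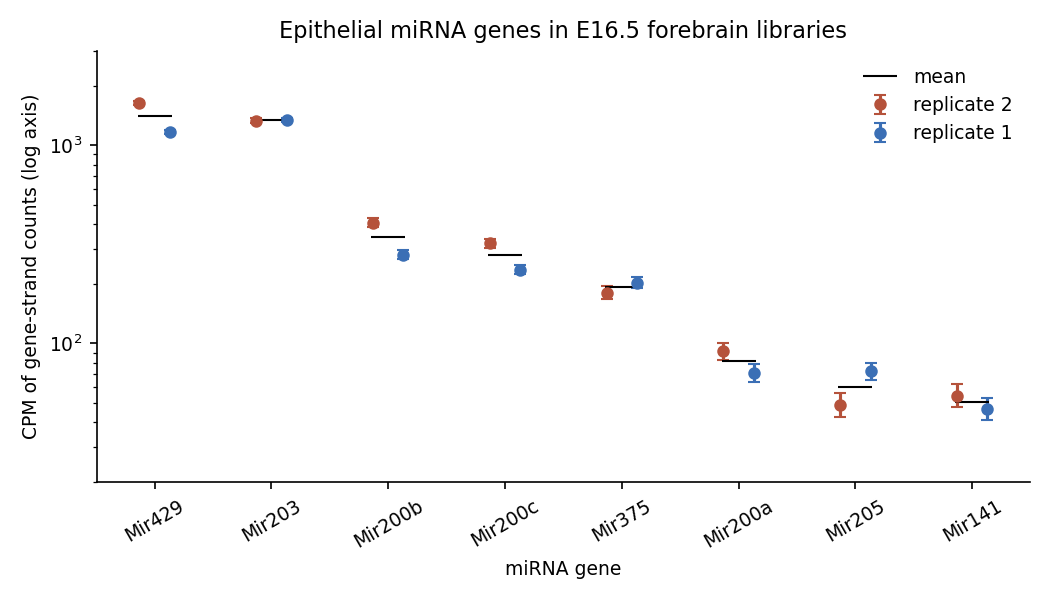
Level of the 8 epithelial miRNA genes in CPM of gene-strand counts (log axis), with replicate 2 left of replicate 1 for each gene, exact Clopper-Pearson 95% intervals as bars and the mean of both libraries as a black line. Mir429 and Mir203 stand above 1000 CPM in both libraries, and the 5 Mir200 family genes are each higher in replicate 2.

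CPM compares reads, and how well a mature strand is captured differs with its sequence, so levels of different genes are read counts and not numbers of molecules. The annotated hairpins are 64 to 90 bases long. A read is about the length of a mature strand, so dividing by hairpin length is not a length correction. Per kilobase of hairpin, Mir203 came first, at 17603 CPM per kilobase, and Mir429 second, at 16887, which is the reverse of their order by mean CPM, while the order of the other 6 genes was the same.

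Within each cluster the AAUACUG gene outnumbered the AACACUG gene. On chromosome 4, Mir429 took 76.6% of the cluster's counts in replicate 2 (exact 95% interval 75.7% to 77.5%) and 76.9% in replicate 1 (75.9% to 77.8%). Mir200b took 19.1% in replicate 2 (18.3% to 19.9%) and 18.4% in replicate 1 (17.6% to 19.3%). Mir200a, between them on the chromosome, took 4.28% in replicate 2 (3.87% to 4.73%) and 4.68% in replicate 1 (4.22% to 5.17%). The order Mir429, Mir200b, Mir200a was therefore the same in both pools, with intervals far apart. On chromosome 6, Mir200c took 85.5% in replicate 2 (83.6% to 87.2%) and 83.4% in replicate 1 (81.4% to 85.3%), and Mir141 the remainder.

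The proportions between neighbours were close in the 2 pools. Mir200b counts were 4.20 ± 0.367 times those of Mir200a (SD, n = 2), 4.46 in replicate 2 and 3.94 in replicate 1. The Mir200c counts were 5.46 ± 0.590 times those of Mir141, 5.88 in replicate 2 and 5.04 in replicate 1. Mir429 counts were 4.09 ± 0.115 times those of Mir200b and 17.2 ± 1.02 times those of Mir200a. Each of the 4 pairs was compared between the libraries by a two-sided Fisher's exact test, which needs no library scaling and treats reads as independent, with Benjamini-Hochberg adjustment over the 4 pairs. None passed, with adjusted p of 0.280 by Fisher's exact test for Mir200b with Mir200a and for Mir200c with Mir141, and of 0.326 for the other two pairs. The odds ratio of replicate 2 over replicate 1 had 95% intervals of 0.961 to 1.33 for Mir200b over Mir200a, 0.961 to 1.13 for Mir200b over Mir429, 0.791 to 1.07 for Mir200a over Mir429 and 0.951 to 1.43 for Mir200c over Mir141. Changes in proportion within those bounds were not excluded by these counts.

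**Figure D2:**
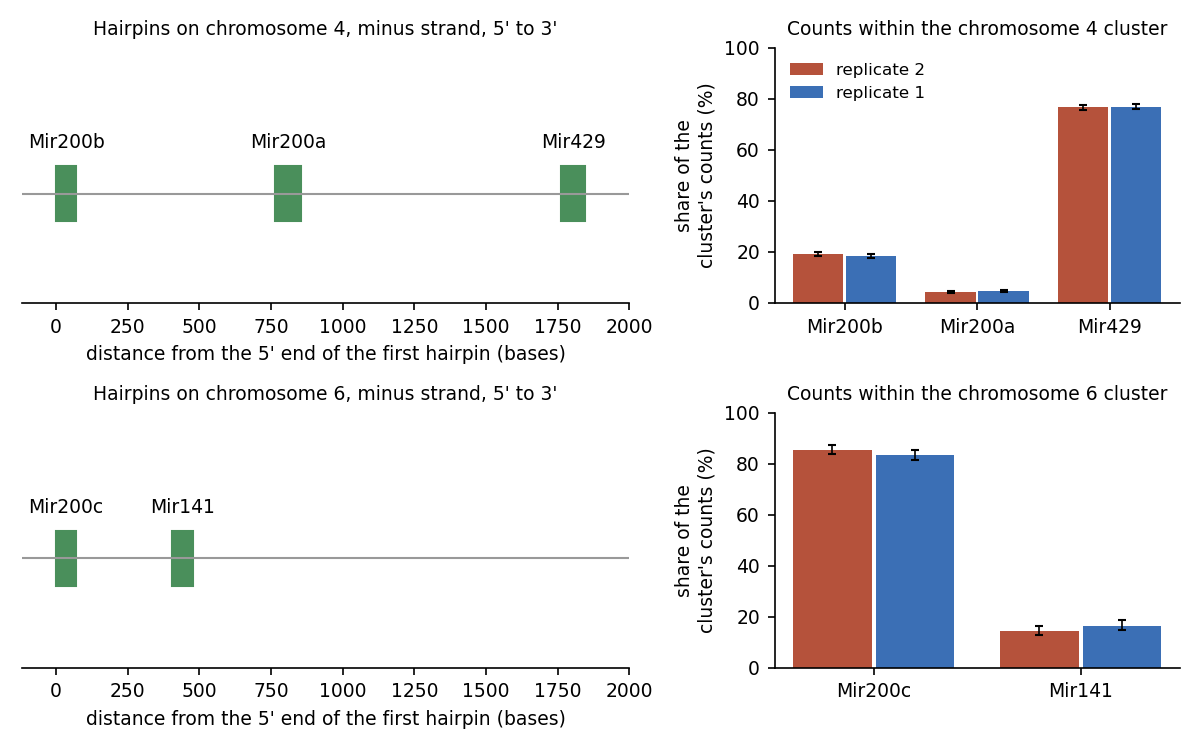
Left, the hairpins of each Mir200 cluster drawn to scale in the direction of transcription, in bases from the 5′ end of the first hairpin. Right, each gene's share of its cluster's counts in percent, replicate 2 left of replicate 1, with exact 95% intervals. Mir429, the last hairpin on chromosome 4, takes 76.6% of that cluster in replicate 2 and 76.9% in replicate 1, and Mir200c 85.5% and 83.4% of the chromosome 6 cluster.

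Grouped by the seeds shown above, the 3 AAUACUG genes together held 2362 CPM in replicate 2 and 1686 CPM in replicate 1, and the 2 AACACUG genes held 146 and 118 CPM. The AAUACUG genes thus had 16.2 times the counts of the AACACUG genes in replicate 2 and 14.3 times in replicate 1. These are counts of whole hairpins, whose arms are not separated, and not counts of reads that carry either seed. Summed over clusters, chromosome 4 had 2133 CPM in replicate 2 and 1521 CPM in replicate 1, and chromosome 6 had 375 and 283 CPM. The ratio of the clusters was 5.68 in replicate 2 and 5.38 in replicate 1.

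Between the libraries, the 5 Mir200 family genes were all higher in replicate 2. Each gene's pair of counts was compared by an exact binomial test (two-sided) after scaling the libraries with TMM, a trimmed mean of log ratios, and p-values were adjusted by Benjamini-Hochberg over the 466 genes whose counts summed to 10 or more. The test sets one library of a single group against the other, treats each read as independent and ignores variation between pools. Of the 8 genes, 7 were called at an adjusted p under 0.05, where 45.7% of all tested genes were. Of these 7, 6 were higher in replicate 2 and 1 was lower, where 22.1% of all tested genes were called higher and 23.6% lower. All 8 had more than 100 counts in each library, while the tested genes include ones with far fewer, which this test calls less readily. These shares, and those given later, are therefore not a like background for the 8. The share called among genes of similar counts was not computed. The median log2 ratio of replicate 2 over replicate 1 was 0.41 over the 8 genes and -0.02 over all tested genes. Genes of one cluster come from neighbouring hairpins and are not independent of each other.

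Mir200b had the largest log2 ratio of the 8, 0.66 (adjusted p = 3.48e-36, exact binomial test), and Mir429 followed at 0.60 (adjusted p = 1.15e-120). Mir200c was higher by 0.56 (adjusted p = 9.17e-22) and Mir200a by 0.48 (adjusted p = 2.25e-05) in the same exact test. Mir141 was at 0.34 (adjusted p = 0.0266, exact binomial test), which is not past the threshold with unscaled totals, at 0.22 and an adjusted p of 0.182. Among the 273 genes that reached 100 counts in each library, 244 had a smaller absolute log2 ratio than Mir200b, 234 than Mir429, 228 than Mir200c, 212 than Mir200a and 171 than Mir141. The median absolute log2 ratio of those 273 genes was 0.26 and the 90th percentile was 0.66. All 5 family genes were above that median and none was above that percentile.

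The 3 genes outside the family had other values, and their difference from the family was not tested. Mir205 was lower in replicate 2, with a log2 ratio of -0.45 (adjusted p = 0.00106, exact binomial test) and 201 of the 273 genes showing a smaller absolute difference. Mir203 had a log2 ratio of 0.11 (adjusted p = 0.000115, exact binomial test), but -0.01 (adjusted p = 0.790) with unscaled totals, so its direction rests on the scaling. Mir375 had a log2 ratio of -0.04 (adjusted p = 0.683, exact binomial test), and -0.16 (adjusted p = 0.0387) with unscaled totals. TMM scaling placed every log2 ratio 0.12 above its unscaled value. With unscaled totals 6 of the 8 genes were called, against 47.6% of tested genes. Of the 8, 4 were called higher, against 14.4% of tested genes, and 2 lower, against 33.3%. The 4 called higher were Mir429, Mir200b, Mir200c and Mir200a.

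**Figure D3:**
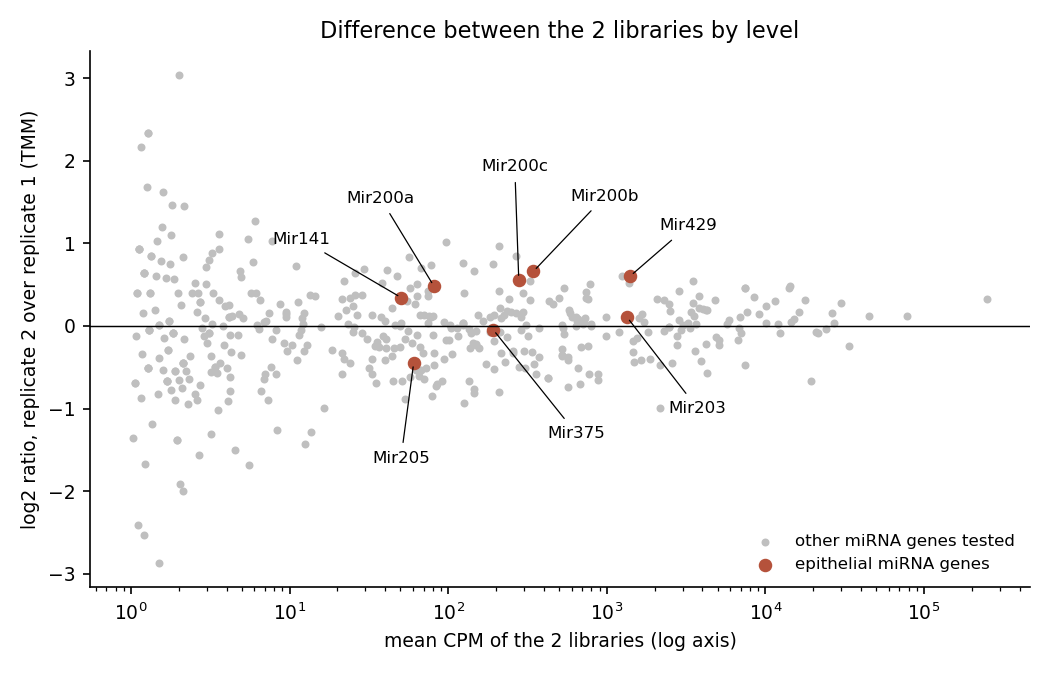
Log2 ratio of replicate 2 over replicate 1 (TMM-scaled) against mean CPM of both libraries (log axis) for the 466 tested miRNA genes, with the 8 epithelial genes in red. The 5 Mir200 family genes lie between 0.34 and 0.66, Mir203 and Mir375 lie near 0, and Mir205 lies at -0.45.

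Gene lists named for tissues that a forebrain dissection could hold, some of them parts of the forebrain, were set beside these values. Their counts of calls stand beside 22.1% of all tested genes called higher in replicate 2 and 23.6% called lower. With unscaled totals those shares were 14.4% and 33.3%. The Mir183, Mir96 and Mir182 cluster of sensory epithelia summed to 833 CPM in replicate 2 and 547 CPM in replicate 1, and 3 of its 3 genes were called higher in replicate 2, with Mir182 at a log2 ratio of 0.55 and Mir183 at 0.85. The mesenchymal list summed to 4798 and 4402 CPM, with 4 of 5 tested genes called higher and 0 lower. It was led by Mir143 of smooth muscle at a log2 ratio of 0.20 and by Mir214 at 0.97. The choroid plexus and ciliated list, led by Mir449a and Mir204, summed to 5079 and 4943 CPM, with 1 of 7 genes called higher and 1 lower. The list of 5 further epithelial genes of gut, kidney and skin, led by Mir192 and Mir194-2, summed to 173 and 211 CPM, with 0 of 5 called higher and 1 lower, or 3 lower with unscaled totals.

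The hypothalamic and pituitary list of Mir7 genes was lower in replicate 2, at 2086 CPM in replicate 2 and 4186 CPM in replicate 1, with 3 of 3 genes called lower. Mir7b had a log2 ratio of -0.998 and Mir7-1 of -0.70. The erythroid list summed to 240 CPM in replicate 2 and 306 CPM in replicate 1, with 1 of 3 genes called higher and 1 lower. The neural list had 4 of 13 called higher and 3 lower, where 22.1% of all tested genes were called higher and 23.6% lower. Apart from the further epithelial genes, the counts of calls in these lists were identical with unscaled totals. Of the genes in the tables, 2 of the 3 Mir7 genes, 3 of the 6 mesenchymal and 2 of the 5 further epithelial genes share 22 bases with another miRNA gene, so reads that map to several loci are missing from their sums. No gene of these lists with a row in the tables was at 0 in both libraries. The part of these tissues in the levels of the epithelial genes, and in their differences between the pools, was not tested.

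**Figure D4:**
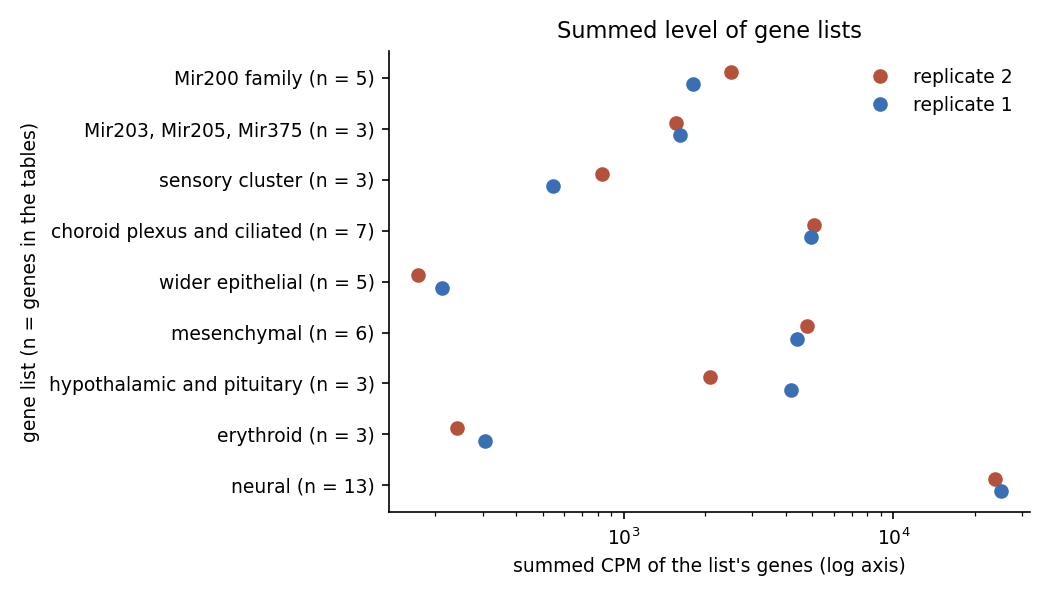
Summed CPM (log axis) of the Mir200 family, of the 3 other epithelial genes and of 7 comparison lists, with n the genes of each list in the tables. Replicate 2 is drawn above replicate 1. The Mir200 family, the sensory cluster, the mesenchymal list and, slightly, the choroid plexus and ciliated list sit higher in replicate 2. The Mir7, further epithelial, erythroid and neural lists sit lower. Mir203, Mir205 and Mir375 sum to 1562 CPM in replicate 2 and 1618 CPM in replicate 1.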

How the data were processed

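Small RNA libraries of 2 forebrain pools were represented by 1 table each of raw read counts per gene, as deposited: a column without regard to strand and a column for each strand. The assembly is mm10 and the annotation GENCODE M4, per the authors' description of each file. Aligner, counter and trimming: not given in the sources used here. Counts of the gene strand (column 3) were used. Rows of unassigned reads stayed out of totals: 43.3% of all reads mapped to several loci and 15.2% were unmapped in replicate 2, and 40.5% and 19.1% in replicate 1. Symbols came from GENCODE M21 by identifier without version.

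The exact binomial test (scipy 1.17.1) used library totals with TMM factors from edgeR 4.0.16 in R 4.3.3, and log2 ratios were taken after adding 0.5 to counts. Fisher's exact test (scipy) used the raw counts. Quasi-likelihood fitting was not used, because a comparison of 2 single libraries leaves no replicate from which to estimate variation. Values are mean ± SD of 2 pools. The members, lists and tests were chosen with earlier results of these data known. All 8 members are named, with their neighbours in mean CPM, up to 2 leading genes per list and the most abundant gene. Mir96 and Mir124a-3, outside that rule, are named as members of their lists.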

Additional observations from a re-analysis of the deposited data

Results flagged for a closer look

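Opposite-strand reads, which the comparisons do not use, were present at Mir203 above the limit of 3 that a count of 0 allows. There were 88 in replicate 2 and 118 in replicate 1. They made up 1.56% of the reads of both strands in replicate 2 (exact Clopper-Pearson 95% interval 1.26% to 1.92%) and 1.71% in replicate 1 (1.41% to 2.04%), and a two-sided Fisher's exact test of the difference between the shares gave p = 0.572. The other 7 epithelial genes had 0 opposite-strand reads in either library. Of all 1973 genes, 11 had more opposite-strand reads than Mir203. GENCODE M21 lists no gene on the other strand of the Mir203 hairpin.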

How the results depend on the processing

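With unscaled totals the log2 ratio of Mir203 reversed to -0.0117, the calls of Mir141 and Mir203 were lost, Mir375 was called lower at -0.16, and 2 members in place of 1 were called lower. With median-of-ratios size factors, counts without regard to strand or 5 added to each count, no member's call or direction changed, and with no filter or a summed count of at least 100 again 6 members were called higher and 1 lower. The summed share of the 8 genes was 0.375% on average, 0.141% of all reads and 0.501% when Mir99a was left out of the totals. Leaving out each replicate gave 0.342% to 0.407%, ratios of 3.94 to 4.46 (Mir200b over Mir200a), 0.240 to 0.249 (Mir200b over Mir429), 0.0559 to 0.0608 (Mir200a over Mir429) and 5.04 to 5.88 (Mir200c over Mir141). The level per kilobase of hairpin, added after the data were seen and not a length correction for such short reads, exchanged Mir429 and Mir203. No paired analysis was possible because both libraries belong to a single group. With 2 pools the spread of any gene rests on 1 difference.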
